A study of Mus musculus with 15 samples.

Results

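Coactosin-like protein, fascin and 8 other actin-binding genes were followed in dendritic cells of the mouse thymus: Cotl1, Fscn1, Coro1a, Lcp1, Pfn1, Cfl1, Tmsb4x, Tmsb10, Tns1 and Tns3. They are 10 of the 22165 genes in the count table, and all 10 were among the 11746 genes with enough counts to be tested. They were taken by symbol from a list drawn up when earlier results of these counts were known. Fscn1 and its difference between genotypes in cDC2 were among those results, and which values chose the other genes is not recorded. Differences between the genotypes are therefore given for these genes as a description, with no p, and nothing is read from how many of them passed the threshold of the fit over all genes. Levels in the subsets within a genotype were tested. These levels may also have chosen some of the genes, so their p-values and counts are a description too.

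KO mice were Itgax-cre Stk11 fl/fl animals, in which the promoter of the CD11c gene drives the recombinase and the kinase LKB1 is deleted in cells that have used it. WT mice were their comparison, and both were male and female, C57BL/6 and 8 to 12 weeks old. Mice of both genotypes carried a melanoma, injected under the skin, that secreted the dendritic cell growth factor Flt3L, and thymi were taken 9 to 12 days later, so that no group shows a thymus without Flt3L and tumour. CD11c-enriched cells were sorted into conventional dendritic cells of type 1 (cDC1, by CD8a), conventional dendritic cells of type 2 (cDC2, by CD11b) and plasmacytoid dendritic cells (pDC, by Siglec-H), and their 3′ RNA tags were sequenced. The 15 libraries comprised 2 KO and 2 WT of cDC1, 3 KO and 2 WT of cDC2, and 3 of each genotype of pDC. The labels do not say that libraries of a group came from separate mice, so p-values measure the spread between these samples. In bulk RNA, fewer cells of a kind and less RNA per cell cannot be told apart.

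Actin cycles between single subunits and filaments. Profilin and the beta-thymosins hold subunits, cofilin cuts old filaments, and coactosin-like protein and coronin sit on filaments and change how they turn over. Fascin and plastin tie filaments into bundles, and tensins join filaments to integrins at sites of adhesion. Dendritic cells rebuild this skeleton when they stop sampling antigen and start to migrate, and fascin is a classical marker of that matured, CCR7-bearing state. LKB1 switches on AMPK and related kinases, some of which act on cell polarity.

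The 2 beta-thymosins show how alike members of one family can be in sequence. Their shortest annotated coding sequences are 135 bases each and code for 44 residues. They have the same base at 95 of the 135 positions, or 70.4%, and differ at 40, which are in capitals below.
Tmsb4x, chromosome X: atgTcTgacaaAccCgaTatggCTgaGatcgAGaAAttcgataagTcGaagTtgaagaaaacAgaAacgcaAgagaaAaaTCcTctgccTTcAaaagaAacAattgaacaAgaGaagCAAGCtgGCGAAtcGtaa
Tmsb10, chromosome 6: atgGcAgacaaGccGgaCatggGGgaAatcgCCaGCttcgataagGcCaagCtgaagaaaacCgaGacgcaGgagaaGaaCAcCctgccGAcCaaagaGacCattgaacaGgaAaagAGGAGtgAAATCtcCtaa

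Windows of 250 bases upstream of the RefSeq start (GRCm38.p6) were read for 9 of the 10 genes, 13 windows in all because some genes have several starts. Cotl1 had no window in this set, so nothing below on motifs covers it. The windows of Fscn1, whose level went with that of Ccr7, and of Tns1, which had lower mean levels in KO than in WT cells, are shown with matches to the searched motifs in capitals, 5′ to 3′ on the strand of the gene.
Fscn1, chr5:142960105-142960354, plus strand: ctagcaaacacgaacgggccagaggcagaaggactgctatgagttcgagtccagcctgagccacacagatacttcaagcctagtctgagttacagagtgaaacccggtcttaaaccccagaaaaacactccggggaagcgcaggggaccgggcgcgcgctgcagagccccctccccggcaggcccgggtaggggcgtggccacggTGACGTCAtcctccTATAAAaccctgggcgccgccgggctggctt
Tns1, chr1:74124549-74124798, minus strand: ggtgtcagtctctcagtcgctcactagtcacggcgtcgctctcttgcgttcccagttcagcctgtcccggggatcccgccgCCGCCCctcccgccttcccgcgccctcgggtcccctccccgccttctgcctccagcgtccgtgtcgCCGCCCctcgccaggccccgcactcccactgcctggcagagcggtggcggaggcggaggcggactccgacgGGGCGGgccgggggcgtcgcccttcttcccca
The Fscn1 window held a full cAMP response element, TGACGTCA, 45 to 38 bases before the start, and a TATA box, TATAAA, 31 to 26 bases before it. Of 32851 windows of the same length, 1.55% held the full element and 12.4% the TATA box, on either strand. The shorter site TGACG, which lies within the full element, was in 3 of the 13 windows, 1 each of Fscn1, Coro1a and Tmsb4x, and in 17.8% of all windows. The GC box GGGCGG was in 9 of the 13 windows, that of Tns1 among them with 3 matches in capitals, and in 32.7% of all windows. GC content ran from 41.6% to 74.4% over the 13 windows, highest in that of Tns1, beside a median of 52.4% over all windows. Its part in the GC box matches was not tested. The CArG box, the site of the serum response factor that drives many cytoskeletal genes, was in 0 of the 13 windows and in 1.47% of all. The letters of a PU.1 site, GAGGAAGT, and of an AP-1 site, TGANTCA, were in 0 of the 13 as well, against 2.44% and 6.75% of all windows. These are matches of letters in short windows and say nothing of binding.

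Total counts ran from 3928164 in cDC2 WT 1 to 12142712 in cDC2 KO 2. Levels are CPM, the counts scaled to the size of the library after TMM normalization, and the precision of each value is limited by its group of 2 or 3 libraries. Libraries were pooled for sequencing by their Actb signal in qPCR, per the labels, which sets depth and not CPM. Stk11 itself was at 30.6 and 18.4 CPM in cDC1 KO, against 35.6 and 54.2 CPM in cDC1 WT. It was at 36.1, 28.2 and 29.2 CPM in cDC2 KO, against 34.2 and 34.9 CPM in cDC2 WT, and at 43.5, 33.2 and 36.6 CPM in pDC KO, against 66.8, 40.6 and 46.7 CPM in pDC WT. The groups overlapped in cDC2 and pDC. The labels do not give the deleted part of the gene, and 3′ tags from outside it check nothing. Markers separated pDC from the others, and cDC1 from cDC2: Siglech was at 15568 to 27709 CPM in pDC and 83.2 to 238 CPM in the others, and Xcr1, a receptor of cDC1, at 401 to 862 CPM in cDC1 and 51.4 to 226 CPM in cDC2, and at 0.26 to 4.53 CPM in pDC. The whole list of 10 cDC1 markers did not separate pDC from cDC1, and it holds Irf8, a factor known in both. It summed to 6995 to 9575 CPM in pDC KO and 7079 to 8548 CPM in pDC WT, against 6949 to 8161 CPM in cDC1 KO and 10310.2 to 10945 CPM in cDC1 WT. Cd8a, the gene of the cDC1 sort marker, was at 78.6 to 102 CPM in pDC KO and 86.3 to 125 CPM in pDC WT, against 114 and 141 CPM in cDC1 KO and 249.6 and 259 CPM in cDC1 WT. Sirpa, a marker of cDC2, was at 151 to 218 CPM in cDC2 KO and 76.2 to 106 CPM in cDC2 WT, against 5.39 to 14.1 CPM in cDC1, and it was also at 111 to 143 CPM in pDC. Itgam, the CD11b gene used for the cDC2 sort, was higher in KO than in WT libraries of each subset. It was at 63.4 to 68.7 CPM in pDC KO, against 2.97 to 7.81 CPM in pDC WT. In cDC2 it was at 161 to 260.3 CPM in KO, against 105 and 102 CPM in WT. In cDC1 it was at 13.1 and 9.92 CPM in KO, against 1.88 and 0.364 CPM in WT.

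Cotl1 lies on chromosome 8 at 119809222 to 119840544, minus strand (GRCm38), and codes for a small protein that binds the side of actin filaments and also 5-lipoxygenase. It was higher in every KO library than in every WT library of the same subset. In cDC1 it was at 218 and 389 CPM in KO, against 149 and 149 CPM in WT. In cDC2 it was at 267, 222 and 276 CPM in KO, against 110.5 and 110.4 CPM in WT. In pDC it was at 48.4, 66.5 and 46.9 CPM in KO, against 26, 26.7 and 28.1 CPM in WT. The WT libraries of each subset lay close together, and the widest spread was between the 2 cDC1 KO libraries.

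Cotl1 differed between KO and WT on the log2 scale by 1.03 ± 0.31 for cDC1, by 1.21 ± 0.29 for cDC2 and by 1.00 ± 0.26 for pDC (KO minus WT, estimate ± SE). Averaged over the 3 subsets with equal weight it was 1.08 ± 0.17, a 2.11-fold higher level in KO. The value in cDC1 was 0.55 without cDC1 KO 2 and 1.39 without cDC1 KO 1, and that in cDC2 was 0.54 with offsets for transcript length and GC content. Of all 11746 genes tested, 69 (0.587%) had KO and WT libraries apart in the same direction in all 3 subsets, and Cotl1 was the 1 gene of the 10 among them. Thymocyte and T cell markers, 11 in the table and all detected in every group, summed to 133 to 226 CPM in cDC1 KO, against 214 to 249 CPM in cDC1 WT, to 96.1 to 112 CPM in cDC2 KO, against 116 to 168 CPM in cDC2 WT, and to 317 to 377 CPM in pDC KO, against 368 to 485 CPM in pDC WT, and their part in the levels of Cotl1 was not tested.

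Tns1, at 73910231 to 74124449 on chromosome 1, minus strand, codes for tensin 1, which links actin to the tails of beta integrins. Its levels ran the other way. In cDC1 it was at 16.9 and 20.6 CPM in KO, against 54.2 and 40.8 CPM in WT. In cDC2 it was at 30, 37 and 51.5 CPM in KO, against 72.1 and 104 CPM in WT. In pDC it was at 98.7, 135 and 71.1 CPM in KO, against 214, 109.8 and 130 CPM in WT. KO libraries were below all WT libraries in cDC1 and cDC2, and the pDC groups overlapped. The log2 differences were -1.34 ± 0.41 in cDC1, -1.16 ± 0.35 in cDC2 and -0.57 ± 0.32 in pDC, with an average of -1.02 ± 0.21, a level 2.03-fold lower in KO.

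Tns3 codes for the related tensin 3 (chromosome 11, 8431652 to 8664535, minus strand). It was at 59.9, 44 and 45.9 CPM in cDC2 KO, against 103 and 74.6 CPM in cDC2 WT, and these groups did not overlap. It was at 65 and 56.7 CPM in cDC1 KO, against 74.8 and 53.5 CPM in cDC1 WT, and at 19.3, 31.9 and 32 CPM in pDC KO, against 37.5, 21.2 and 46 CPM in pDC WT, with overlap in both. The log2 difference was -0.83 ± 0.34 in cDC2, -0.07 ± 0.38 in cDC1 and -0.33 ± 0.31 in pDC.

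Fscn1 codes for fascin, which packs filaments into the straight bundles of spikes and dendrites (chromosome 5, 142960343 to 142973185, plus strand). It was at 167 and 172 CPM in cDC1 KO, against 131 and 93.2 CPM in cDC1 WT. In cDC2 it was at 211, 128 and 171 CPM in KO, against 34.7 and 63.3 CPM in WT. In pDC it was at 78.7, 48.3 and 5.43 CPM in KO, against 8.86, 13.3 and 22.4 CPM in WT. The groups were apart in cDC1 and cDC2, while in pDC 2 KO libraries were above all WT libraries and the third was below them all.

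For Fscn1 the log2 differences were 0.60 ± 0.72 (cDC1), 1.79 ± 0.71 (cDC2) and 1.57 ± 0.62 (pDC), with an average of 1.32 ± 0.39. Its standard errors were the widest of the 10 genes in each of these comparisons. In pDC the value was 2.09 without pDC KO 3 and 0.86 without pDC KO 1. Ccr7, the chemokine receptor of mature dendritic cells, was at 271, 213 and 16.8 CPM in the same pDC KO libraries, against 32.3, 41 and 56.2 CPM in pDC WT, so the library lowest in Fscn1 was also lowest in Ccr7. Ccr7 was at 596, 363 and 933 CPM in cDC2 KO, against 109 and 292 CPM in cDC2 WT, and at 387 and 585 CPM in cDC1 KO, against 532 and 159.6 CPM in cDC1 WT.

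The whole list of 15 markers of mature dendritic cells was detected in every group. It summed to 1646 to 2305 CPM in cDC1 KO, against 1097 to 1932 CPM in cDC1 WT, to 1462 to 2480.2 CPM in cDC2 KO, against 1084 to 1588 CPM in cDC2 WT, and to 282 to 866 CPM in pDC KO, against 273 to 453 CPM in pDC WT. Calls by DESeq2 and limma voom are not reported here for these 15. By edgeR 0 of the 15 passed the threshold between genotypes in cDC1, cDC2, pDC or the average. At an unadjusted p under 0.05 edgeR gave 2, 3, 4 and 8 of them in that order, or 13.3%, 20%, 26.7% and 53.3%, beside 3.83%, 13.3%, 10.6% and 10.2% of all genes. Its genes were listed with earlier results known, so these shares are a description. The part of these levels in the differences of Fscn1 was not tested.

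**Figure D1:**
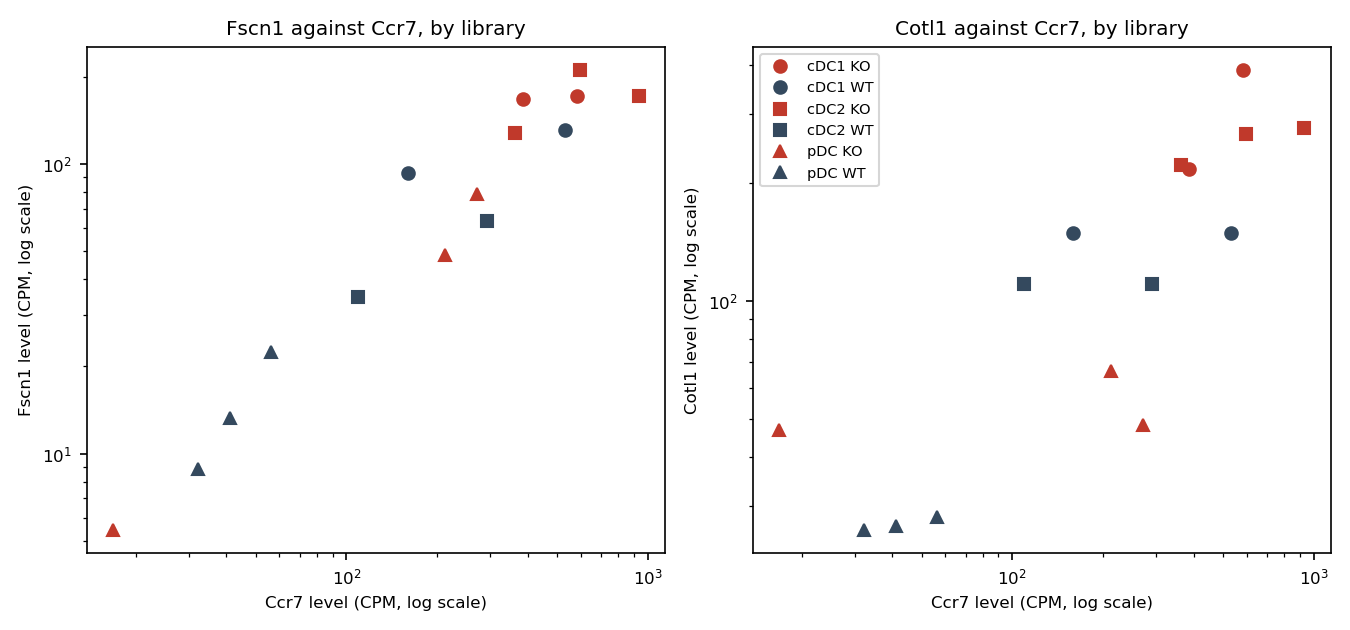
Fscn1 (left) and Cotl1 (right) against Ccr7 in each of the 15 libraries, in CPM on log axes, with KO in red, WT in dark blue and the subset given by the symbol. Fscn1 was lowest, at 5.43 CPM, in the pDC KO library with 16.8 CPM of Ccr7, whereas Cotl1 was at 46.9 CPM there, above its 26 to 28.1 CPM in pDC WT.

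By Pearson correlation of log2 CPM over the 15 libraries, the genes outside the 10 most like Fscn1 were Gyg (r = 0.971), Ccr7 (0.971), Apol7c (0.967), Marcksl1 (0.953) and Zfyve9 (0.946). Those most like Cotl1 were Mcm5 (r = 0.959), a subunit of the replicative helicase, Haus5 (0.944), Rrm2 (0.944), a subunit of ribonucleotide reductase, Ifitm2 (0.943) and Acot7 (0.943). The 15 points share subset and genotype, so these values describe likeness of pattern across 6 groups and carry no p. Between Cotl1 and Fscn1 r was 0.869, and between Cotl1 and Tns1 it was -0.861.

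Coro1a codes for the coronin of white blood cells, which binds filaments and the Arp2/3 complex (chromosome 7, 126699773 to 126707787, minus strand). In cDC2 it was at 1087, 841 and 869 CPM in KO, against 475 and 383 CPM in WT. In pDC it was at 558, 686 and 682 CPM in KO, against 484, 480 and 406 CPM in WT, and in cDC1 at 797 and 779 CPM in KO, against 787 and 889 CPM in WT. KO and WT were apart in cDC2 and pDC and overlapped in cDC1. The log2 differences were 1.12 ± 0.25 in cDC2, 0.49 ± 0.22 in pDC and -0.09 ± 0.26 in cDC1, and the value in cDC2 was 0.48 with the offsets for length and GC content. Its exons share 26 bases with Bola2 on the other strand, and strand use in the counting is not given in the sources used here.

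Lcp1 codes for L-plastin, the bundling protein of white blood cells (chromosome 14, 75131101 to 75230842, plus strand). It was at 1324, 458 and 299.8 CPM in pDC KO, against 387, 374 and 442 CPM in pDC WT, and a single KO library stood high. The log2 difference there was 0.79 ± 0.42, and it was -0.08 without pDC KO 1, the library that was also highest of the pDC in Fscn1 and Ccr7. In cDC1 Lcp1 was at 1685 and 1613 CPM in KO, against 2353 and 1392 CPM in WT, and in cDC2 at 1130 to 2494 CPM in KO, against 1619 and 2023 CPM in WT, with overlap in both.

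Pfn1 codes for profilin 1, which reloads actin subunits with ATP and delivers them to growing ends (chromosome 11, 70651850 to 70654644, minus strand). It was at 1222, 1158 and 889 CPM in pDC KO, against 775, 745 and 523 CPM in pDC WT, and at 1126 to 1623 CPM in cDC2 KO, against 916 and 1002 CPM in cDC2 WT. These groups were apart, and those of cDC1 overlapped. The log2 difference was 0.68 ± 0.24 in pDC, 0.49 ± 0.28 in cDC2 and -0.03 ± 0.30 in cDC1, or 0.27 in cDC1 without cDC1 WT 1. In cDC2 its sign turned with the offsets for length and GC content, to -0.13.

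Cfl1, the gene of cofilin 1 (chromosome 19, 5490455 to 5495201, plus strand), was at 1021 to 3179 CPM over all KO libraries and 784 to 3021 CPM over all WT libraries. The genotypes overlapped in each of the 3 subsets, with log2 differences of 0.35 ± 0.37 in cDC1, -0.08 ± 0.34 in cDC2 and 0.26 ± 0.30 in pDC. The sign in cDC1 turned without cDC1 KO 1, to -0.14, and that in cDC2 without cDC2 WT 2, to 0.49. Its exons share 468 bases with Snx32 on the other strand, and the pseudogene Gm6180, which has no row in the table, matches it at 98.8% of 498 bases.

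The beta-thymosins keep a pool of free subunits. Tmsb4x (chromosome X, 167207093 to 167209315, minus strand) was at 11948 to 12645 CPM in cDC2 KO, against 10388 and 10465 CPM in cDC2 WT, which did not overlap, and overlapped between the genotypes in cDC1 and pDC. Its log2 differences were 0.24 ± 0.25 in cDC2, -0.25 ± 0.28 in cDC1 and 0.14 ± 0.23 in pDC. With the offsets the value in cDC2 was -0.22. Tmsb10 (chromosome 6, 72957347 to 72958748, minus strand) was at 876 and 854 CPM in cDC1 KO, against 550.4 and 814 CPM in cDC1 WT, and overlapped in cDC2 and pDC. Its log2 differences were 0.34 ± 0.33 (cDC1), 0.03 ± 0.30 (cDC2) and -0.47 ± 0.27 (pDC). With the offsets the value in cDC2 was -0.65. A near copy of Tmsb10, Gm9844, matches at 99.1% of 466 bases and has 259 counts in all libraries together.

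**Figure D2:**
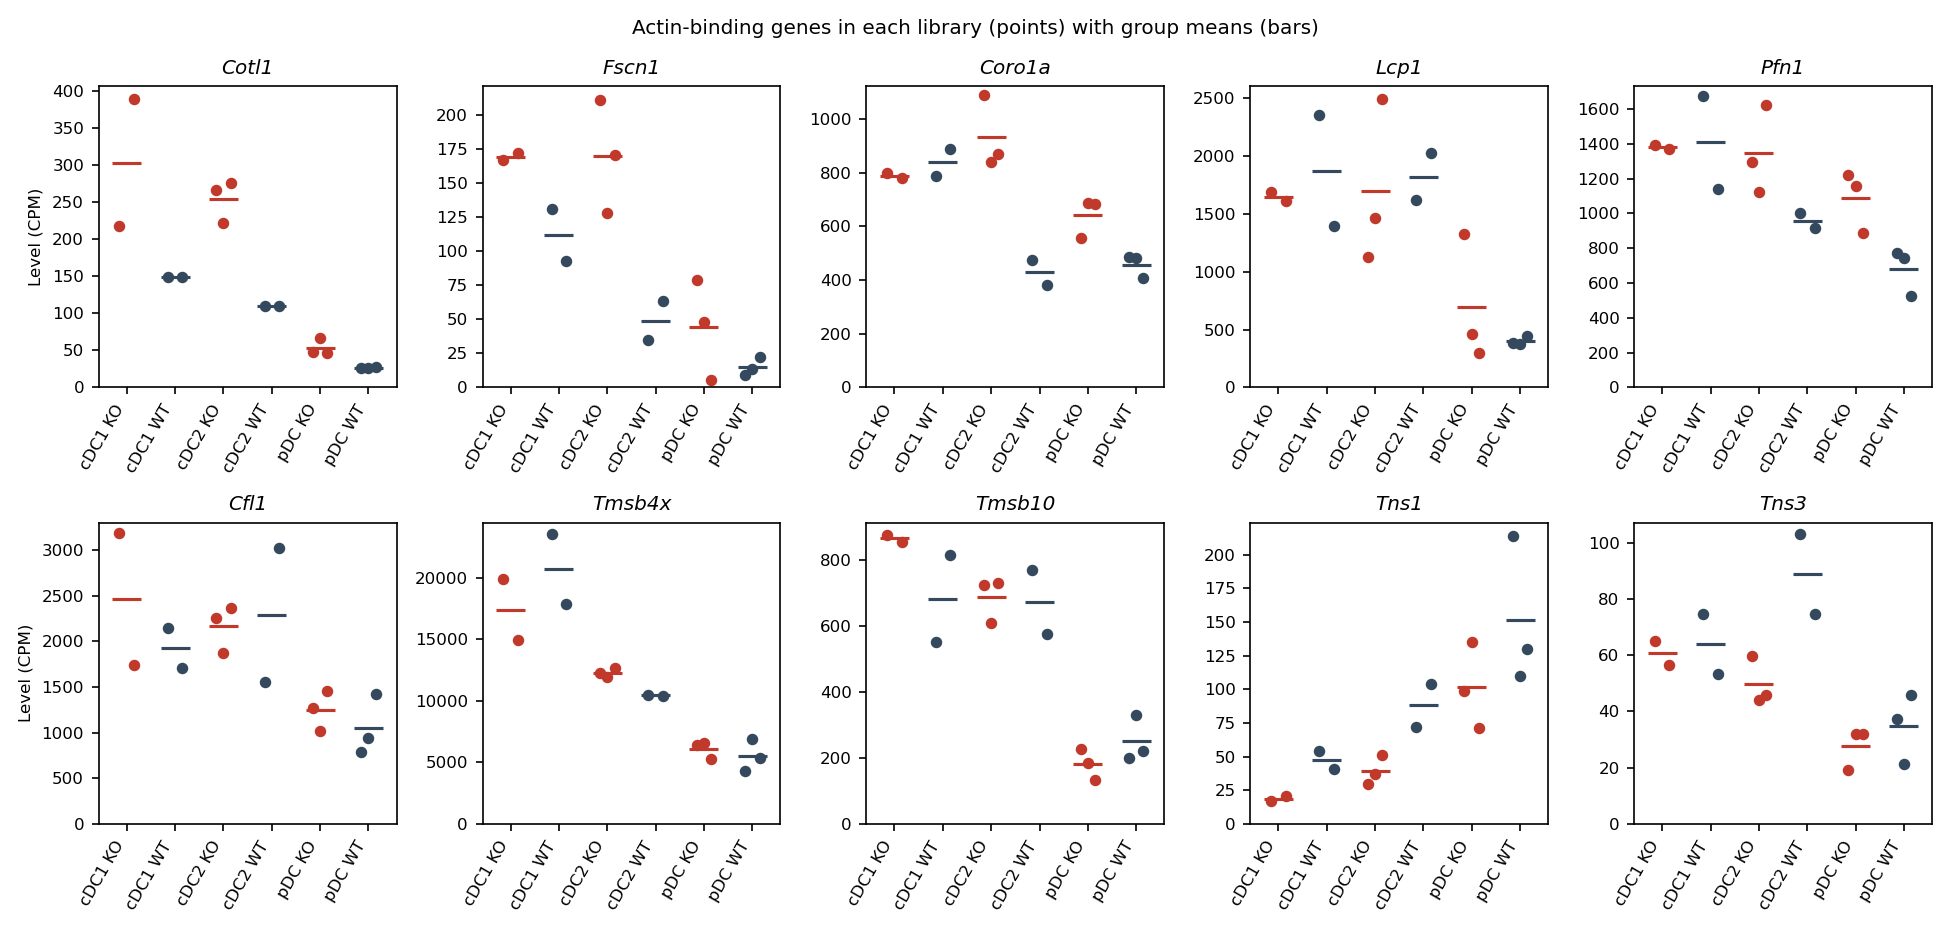
Level of each gene in CPM (linear axes from 0) in every library (points) and its group mean (bars), KO in red to the left of WT in dark blue within cDC1, cDC2 and pDC. Cotl1 is higher in KO than in WT in all 3 subsets, and Tns1 is the gene with its highest mean, 151 CPM, in pDC WT.

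**Figure D3:**
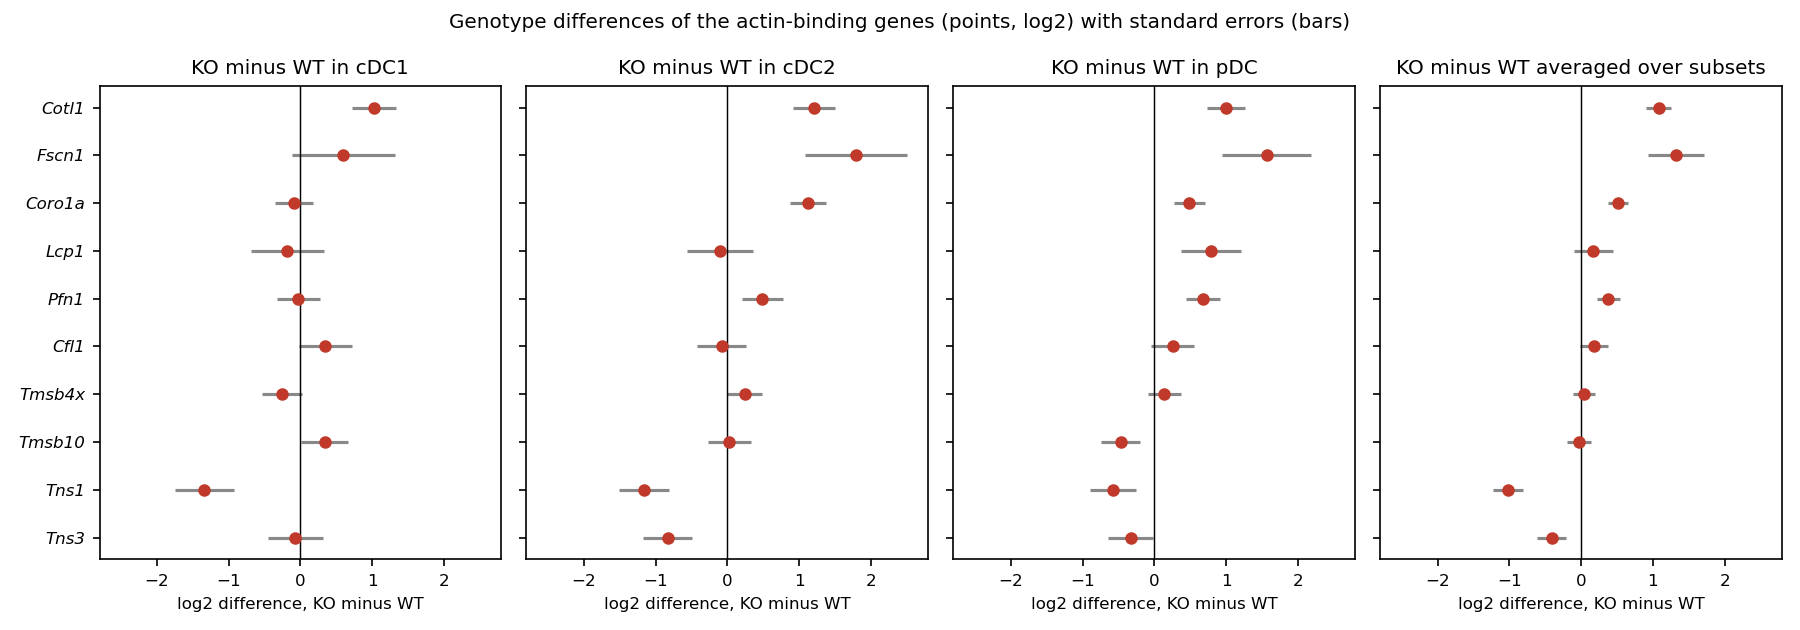
Log2 difference, KO minus WT, of the 10 genes in cDC1, cDC2, pDC and on average over the subsets, with standard errors as bars. Cotl1 lies between 1.00 and 1.21 in the 3 subsets, Tns1 between -1.34 and -0.57, and Fscn1 has the widest bars.

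Counted over the 10 genes, KO and WT libraries were apart for 4 in cDC1, 7 in cDC2 and 3 in pDC, beside 37.2%, 34.8% and 11.3% of all genes tested. With edgeR's quasi-likelihood test and Benjamini-Hochberg adjustment, 0 of the 10 passed a threshold of 0.05 in cDC1, where 0.0255% of all genes passed, 0 in cDC2 (0.119%) and 0 in pDC (0.0681%). At an unadjusted p under 0.05, 450 of all genes passed in cDC1, 1564 in cDC2 and 1245 in pDC. In the average over subsets 0.306% of all genes passed, Cotl1 and Tns1 among them. Since the 10 were listed with earlier differences between the genotypes known, these counts describe them and support nothing. The median log2 difference of the 10 in the average was 0.17, against 0.05 over all genes. Without cDC1 KO 2, cDC1 WT 1 or cDC1 WT 2, Cotl1 did not pass, with averages of 0.93, 1.06 and 1.08. Tns1 passed in 3 of the 15 fits that left out a library, those without pDC KO 2, pDC WT 2 or pDC WT 3, with averages of -1.11, -1.09 and -1.09, and in the other 12 its average was -1.10 to -0.91.

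The difference between genotypes was also compared between subsets, by the interaction of both, with the same limit on what the counts of the 10 can show. None of the 10 genes passed for cDC2 minus cDC1, where 0.00851% of all genes passed, for pDC minus cDC1 (0%) or for pDC minus cDC2 (0%). Unadjusted p-values under 0.05 were found for 994, 970 and 988 of all genes. DESeq2 and limma voom called 0 of the 10 as well, and over all genes DESeq2 called 42, 91 and 36. For Coro1a the effect in cDC2 minus that in cDC1 was 1.21 ± 0.36. For Cotl1 the 3 differences of effects were 0.18 ± 0.42, -0.02 ± 0.41 and -0.21 ± 0.38 in the same order, and the first was -0.54 with the offsets.

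The widest differences of the 10 genes were between pDC and the conventional subsets, though not for each gene. Within each genotype 9 of the 10 genes had lower estimates in pDC than in cDC1, and Tns1 was the exception. With the offsets Pfn1 and Coro1a did not have lower estimates in KO, at 0.00 and 0.09. In KO libraries 7 of the 10 passed between pDC and cDC1, 1 higher and 6 lower, beside 21.5% of all genes. In WT libraries 8 passed, 1 higher and 7 lower, beside 27.7% of all genes. Between pDC and cDC2, 6 of the 10 passed in KO libraries, 1 higher and 5 lower, beside 25.9% of all genes, and 6 in WT libraries, all lower, beside 23.6%. Median log2 differences of the 10 genes for pDC minus cDC1 were -1.19 in KO and -1.25 in WT, against -0.09 and -0.05 over all genes. Since levels in the subsets may have chosen some of the 10, these counts and medians only describe them.

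Cotl1 was lower in pDC than in cDC1 by 5.62-fold in KO (log2 difference -2.49 ± 0.28, adjusted p = 4.43e-06) and by 5.52-fold in WT (-2.47 ± 0.28, adjusted p = 4.21e-06). Against cDC2 the log2 difference was -2.24 ± 0.26 in KO (adjusted p = 4.51e-06) and -2.03 ± 0.28 in WT (adjusted p = 4.18e-05). Its order of mean levels was cDC1 KO (303 ± 121 CPM), cDC2 KO (255 ± 28.8), cDC1 WT (149 ± 0.594), cDC2 WT (110.4 ± 0.0516), pDC KO (54 ± 10.9) and pDC WT (27 ± 1.05; mean ± SD). The libraries of cDC1 KO and cDC2 KO overlapped, and no other neighbours in that order did.

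Tns1 was higher in pDC than in cDC1. The difference from cDC1 was 2.44 ± 0.40 in KO (5.43-fold, adjusted p = 0.000206) and 1.67 ± 0.38 in WT (3.19-fold, adjusted p = 0.00307). From cDC2 it was 1.36 ± 0.33 in KO (adjusted p = 0.00449) and 0.78 ± 0.36 in WT (adjusted p = 0.134). Without cDC1 WT 2 the difference between pDC and cDC1 in WT was 1.48, with an adjusted p of 0.0514. Mean levels ran in the order pDC WT (151 ± 55.1 CPM), pDC KO (102 ± 32.2), cDC2 WT (88 ± 22.5), cDC1 WT (47.5 ± 9.47), cDC2 KO (39.5 ± 11) and cDC1 KO (18.7 ± 2.61), and the neighbours did not overlap only between cDC2 WT and cDC1 WT and between cDC2 KO and cDC1 KO.

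Fscn1 was lower in pDC than in cDC1, with log2 differences of -1.94 ± 0.66 in KO (adjusted p = 0.0463) and -2.91 ± 0.68 in WT (adjusted p = 0.00477). The call in KO was lost in 10 of the 15 fits that left out a library, with values from -2.01 to -1.91 in those, and also with RLE scaling (-1.87) and with the offsets (-1.66). Against cDC2 the difference was -1.94 ± 0.61 in KO (adjusted p = 0.0291) and -1.72 ± 0.67 in WT (adjusted p = 0.0751). The call in KO was lost without cDC2 KO 1 (-1.76), cDC2 KO 3 (-1.94), cDC1 KO 1 (-1.95), cDC1 KO 2 (-1.95) or pDC KO 2 (-2.01). The difference in WT passed without pDC KO 1 (-1.72), pDC KO 3 (-1.72) or pDC WT 3 (-2.16).

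Lcp1 was lower in pDC than in cDC1 by 4.67-fold in WT (-2.22 ± 0.46, adjusted p = 0.0016), and the difference in KO, -1.25 ± 0.46, did not pass (adjusted p = 0.0603). It was -2.12 in KO and passed without pDC KO 1. Against cDC2 it was lower in KO (-1.29 ± 0.42, adjusted p = 0.0314) and in WT (-2.18 ± 0.46, adjusted p = 0.00217). The KO call was lost without cDC2 KO 2 (-1.36), cDC2 KO 3 (-0.90), pDC KO 2 (-1.06) or pDC KO 3 (-0.93), and with the offsets (-1.05).

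Both thymosins were lower in pDC than in either conventional subset and in both genotypes. Tmsb4x differed from cDC1 by -1.52 ± 0.25 in KO (adjusted p = 0.000234) and -1.91 ± 0.25 in WT (adjusted p = 2.13e-05), and from cDC2 by -1.01 ± 0.23 in KO (adjusted p = 0.00293) and -0.92 ± 0.25 in WT (adjusted p = 0.0123). Tmsb10 differed from cDC1 by -2.25 ± 0.30 in KO (adjusted p = 2.19e-05) and -1.44 ± 0.29 in WT (adjusted p = 0.00125), and from cDC2 by -1.92 ± 0.27 in KO (adjusted p = 4.15e-05) and -1.42 ± 0.29 in WT (adjusted p = 0.00167). The difference of Tmsb10 between pDC and cDC1 in WT did not pass with the offsets for length and GC content (-0.66). The difference of Tmsb4x between pDC and cDC2 in WT did not pass without cDC2 WT 1 (-0.91), cDC2 WT 2 (-0.92) or pDC WT 1 (-0.77).

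Pfn1 was lower in pDC than in cDC1 in WT (-1.05 ± 0.27, adjusted p = 0.00718), and its difference in KO was -0.34 ± 0.27 (adjusted p = 0.408). Coro1a was lower there in WT (-0.88 ± 0.24, adjusted p = 0.0105), with -0.29 ± 0.24 in KO (adjusted p = 0.426). The Pfn1 call was lost without cDC1 WT 1 (-0.72), the Coro1a call without cDC1 WT 2 (-0.79), and both with the offsets (-0.46 and -0.28). Cfl1 was lower in pDC than in cDC1 in KO (-0.98 ± 0.33, adjusted p = 0.0424), a call lost without cDC2 KO 1, cDC2 KO 2, cDC2 KO 3, cDC1 KO 1, cDC1 WT 1, pDC KO 1 or pDC KO 2, with -0.48 without cDC1 KO 1 and -0.99 to -0.85 without the others, and it was -0.64 with the offsets. Its difference in WT, -0.88 ± 0.33, missed the threshold (adjusted p = 0.0568) and passed without cDC2 WT 1, cDC2 WT 2 or pDC WT 3 (-0.88, -0.88 and -1.15). Against cDC2, Cfl1 was lower in pDC in WT (-1.13 ± 0.33, adjusted p = 0.0194), a call lost without cDC2 WT 2 (-0.57), pDC WT 1 (-0.96) or pDC WT 2 (-1.05).

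Tns3, unlike Tns1, was lower in pDC than in cDC1 in KO (-1.13 ± 0.35, adjusted p = 0.0248), a call lost without cDC1 KO 1 (-1.03), cDC1 KO 2 (-1.23) or pDC KO 1 (-0.93). In WT that difference was -0.88 ± 0.35 (adjusted p = 0.0669), and it passed without pDC WT 3 (-1.12). It was lower in pDC than in cDC2 in WT (-1.34 ± 0.34, adjusted p = 0.00828), a call lost without cDC2 WT 1 (-1.09), and the difference in KO, -0.85 ± 0.32 (adjusted p = 0.057), passed without pDC WT 2 or pDC WT 3 (-0.84 and -0.82).

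**Figure D4:**
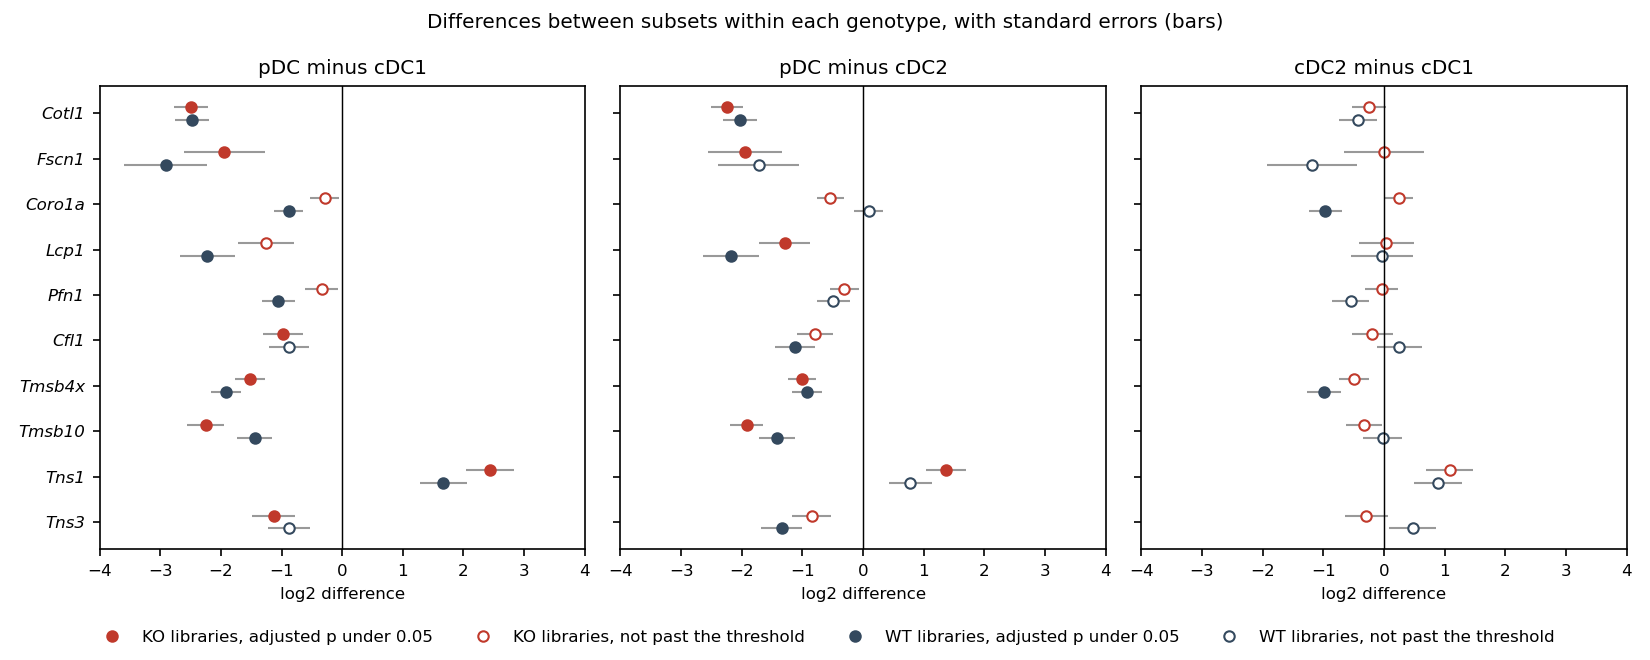
Log2 difference between subsets within KO (red, upper of each pair) and WT (dark blue, lower), with standard errors as bars. Filled points had an adjusted p under 0.05 and open points did not. In pDC minus cDC1, points other than those of Tns1 lie below 0.

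The conventional subsets differed less. In KO libraries 0 of the 10 genes passed between cDC2 and cDC1 with edgeR, beside 1.27% of all genes. Of all genes 1029 had an unadjusted p under 0.05 there, and limma voom called 1 of the 10, Tns1. In WT libraries Coro1a (-0.97 ± 0.27, adjusted p = 0.0316) and Tmsb4x (-0.99 ± 0.28, adjusted p = 0.0354) were lower in cDC2, beside 8.73% of all genes. Coro1a lost its call without cDC2 WT 1 (-1.14), cDC2 WT 2 (-0.83), cDC1 WT 1 (-1.01) or cDC1 WT 2 (-0.88), and was at -0.21 with the offsets. Tmsb4x lost it without cDC2 KO 1 (-0.99), cDC2 KO 2 (-0.95), cDC2 WT 1, cDC2 WT 2 (-0.99), cDC1 WT 1 (-0.73) or cDC1 WT 2 (-1.18), and was at -0.53 with the offsets. With the offsets the signs of Pfn1 and Cotl1 turned in this comparison, from -0.55 to 0.20 for Pfn1 and from -0.43 to 0.37 for Cotl1.

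A further 107 genes of the actin machinery, grouped in 10 lists by role, were read in the same way, and 102 of them were tested. Calls by DESeq2 and limma voom are not reported here for these 102. Between the genotypes 0 of the 102 passed in cDC1, cDC2, pDC or the average with edgeR. At an unadjusted p under 0.05 edgeR gave 3, 16, 11 and 13 of them in that order, or 2.94%, 15.7%, 10.8% and 12.7%, beside 3.83%, 13.3%, 10.6% and 10.2% of all genes. Their median log2 difference in the average was 0.08. Between pDC and cDC1, 7 were higher and 28 lower in KO libraries, with a median of -0.63, and 11 were higher and 34 lower in WT libraries, with a median of -0.52. Together these were 34.3% of the 102 in KO and 44.1% in WT, beside 21.5% and 27.7% of all genes, whose medians were -0.09 and -0.05. Between pDC and cDC2, KO libraries had 6 higher and 34 lower (median -0.51), and WT libraries 7 higher and 27 lower (median -0.40). These were 39.2% and 33.3% of the 102, beside 25.9% and 23.6% of all genes, whose medians were -0.08 and 0.07.

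The actin genes themselves were lower in pDC than in cDC1. Actb, which codes for beta-actin, averaged 11005 ± 2982 CPM in pDC KO and 31935 ± 3507 CPM in cDC1 KO, a log2 difference of -1.54 ± 0.28 (adjusted p = 0.000676). It averaged 6657 ± 1144 CPM in pDC WT and 34307 ± 255 CPM in cDC1 WT, a difference of -2.37 ± 0.29 (adjusted p = 8.58e-06). Actg1, gamma-actin, differed in these comparisons by -1.37 ± 0.23 in KO (adjusted p = 0.000268) and -1.79 ± 0.23 in WT (adjusted p = 1.63e-05). Against cDC2, Actb was lower in pDC by -1.06 ± 0.26 in KO (adjusted p = 0.00565) and -1.59 ± 0.28 in WT (adjusted p = 0.000495). Actg1 was lower than in cDC2 in KO (-0.81 ± 0.21, adjusted p = 0.00816) and did not pass in WT.

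Among the 10 tested bundling and crosslinking genes other than Fscn1 and Lcp1, 1 was higher and 7 lower in pDC than in cDC1 in KO, and 0 higher and 6 lower in WT. These were 80% of the list in KO and 60% in WT, beside 21.5% and 27.7% of all genes. Flna, which codes for the crosslinker filamin A, averaged 31.5 ± 3.83 CPM in pDC KO and 189 ± 28.2 CPM in cDC1 KO, a difference of -2.58 ± 0.29 (adjusted p = 3.82e-06). Pls3, a plastin like Lcp1, was the gene that was higher in pDC in KO libraries, by 2.67 ± 0.80 (adjusted p = 0.0231). Of 6 capping genes 2 (33.3%) were lower in pDC than in cDC1 in both genotypes, beside 21.5% of all genes in KO and 27.7% in WT. Eps8 was 1 of these, at -4.66 ± 0.65 in KO (adjusted p = 6.24e-05) and -3.51 ± 0.61 in WT (adjusted p = 0.000445).

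Of the 10 tested severing and turnover genes, 1 was higher and 3 lower in pDC than in cDC1 in KO, and 2 higher and 3 lower in WT. The shares were 40% in KO and 50% in WT, beside 21.5% and 27.7% of all genes. Capg, a capping protein of the gelsolin family, was higher in pDC in both genotypes. It averaged 71.6 ± 19.2 CPM in pDC KO and 7.24 ± 1.73 CPM in cDC1 KO (9.88-fold, adjusted p = 2.95e-05), and 56.7 ± 8.78 CPM in pDC WT and 5.31 ± 2.11 CPM in cDC1 WT (10.8-fold, adjusted p = 2.73e-05). Of 9 genes of the Arp2/3 complex, which starts branched filaments, 0 were higher and 2 lower in each genotype, which is 22.2% and near the shares of all genes (21.5% in KO and 27.7% in WT). The lower genes included Actr3, at -1.58 ± 0.24 in KO (adjusted p = 0.000111) and -1.76 ± 0.24 in WT (adjusted p = 3.49e-05).

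Rac2, the Rac of blood cells, averaged 576 ± 15 CPM in pDC KO and 81 ± 10.6 CPM in cDC1 KO (7.11-fold, adjusted p = 2.84e-06), and Rac1 was lower there, by -0.85 ± 0.25 (adjusted p = 0.0187). Pak1, a kinase that Rac switches on, averaged 8.09 ± 3.04 CPM in pDC KO and 228 ± 62.6 CPM in cDC1 KO, a level 28-fold lower (adjusted p = 3.44e-08), and 7.32 ± 1.23 CPM in pDC WT and 216 ± 44.3 CPM in cDC1 WT, 29.4-fold lower (adjusted p = 1.89e-08). Of 13 myosins and tropomyosins 1 was higher and 4 lower in both genotypes, or 38.5%, beside 21.5% of all genes in KO and 27.7% in WT. The higher gene in both was Myh10, a nonmuscle myosin, at 4.86 ± 0.68 in KO (adjusted p = 4.19e-05) and 4.85 ± 0.69 in WT (adjusted p = 4.93e-05).

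Among 18 tested nucleation promoters and formins, 2 were higher and 3 lower in pDC than in cDC1 in KO, and 5 were higher and 5 lower in WT. Their shares were 27.8% in KO and 55.6% in WT, beside 21.5% and 27.7% of all genes. Diaph3, a formin that builds unbranched filaments, was lower by -2.71 ± 0.45 in KO (adjusted p = 0.000247) and -2.27 ± 0.45 in WT (adjusted p = 0.00101), and Abi3, of the WAVE complex, was higher by 2.28 ± 0.47 in KO (adjusted p = 0.00173) and 2.41 ± 0.48 in WT (adjusted p = 0.00112). Of the 14 tested adhesion linkers other than Tns1 and Tns3, 0 were higher and 2 lower in KO, and 0 higher and 5 lower in WT. That is 14.3% in KO, below the 21.5% of all genes, and 35.7% in WT, beside 27.7%. Ilk, the integrin-linked kinase, was lower by -1.11 ± 0.29 in KO (adjusted p = 0.00946) and -1.54 ± 0.29 in WT (adjusted p = 0.00069). Of the 4 monomer-binding genes outside the 10, 1 was lower in KO and 2 in WT, or 25% and 50%, beside 21.5% and 27.7% of all genes. Cap1, a cyclase-associated protein that binds subunits, was lower in WT by -1.84 ± 0.39 (adjusted p = 0.00172), and Twf2, twinfilin 2, was lower by -1.39 ± 0.31 in KO (adjusted p = 0.00344) and -1.61 ± 0.31 in WT (adjusted p = 0.000932).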

How the data were processed

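RNA was read as 3′ tags. The deposited table holds raw read counts per gene and library, with no normalization by the authors. Per the submitters' processing notes, STAR, HTSeq, DESeq2 and mm10 were used; their versions, the strand setting and the handling of duplicates are not stated in them. Reads carry no molecular identifiers and were amplified by 12 PCR cycles, per the labels. No column was left unassigned. Of 22165 gene IDs, 21745 matched a symbol and coordinates in GENCODE M21 (GRCm38), and 5860 had no count.

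Genes were kept by filterByExpr on the 6 groups, which left out 47% of genes with 0.0538% of counts. Libraries were scaled by TMM (0.841 to 1.08). All 15 libraries entered a quasi-likelihood model of the 6 group means (edgeR 4.0.16 under R 4.3.3). The common BCV, the spread between replicates, was 0.395. Tests had robust spread and two-sided Benjamini-Hochberg adjusted p-values over all tested genes, threshold 0.05, in 13 contrasts. SE is the log2 difference divided by the root of F. The 10 genes, the lists and the tests were chosen with earlier results of these data known. All 10 are named, with up to 3 genes past the threshold per list, contrast and direction by smallest p, and the 5 genes most correlated with Cotl1 and with Fscn1; of the list genes this rule takes, the text names some and counts the rest, and the counts of 1 list are not reported here. Sequences are from GENCODE M21 transcripts and RefSeq promoter windows (GRCm38.p6), and near copies are BLAST 2.17.0 matches of at least 95% over at least 200 bases. The fits were repeated with DESeq2 1.42.0, with limma voom (3.58.1) and quality weights, with RLE scaling, without the filter, with a floor of 10 CPM in 2 libraries, a replicate block, offsets for length and GC content, and leaving out each library.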

Additional observations from a re-analysis of the deposited data

How the results depend on the processing

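In KO minus WT in cDC2, where 0 of the 10 genes passed, DESeq2 called 3 (Cotl1, Tns1 and Coro1a) and the fit with no filter on low counts called 1 (Fscn1). In pDC, where 0 passed, DESeq2 called 1 (Cotl1), no filter called 1 (Fscn1), and leaving out a library called 0 to 1. In the average over subsets, where 2 passed, DESeq2 called 4, the offsets for length and GC content 1, and leaving out a library 0 to 2. With no filter Fscn1 passed in the average too, beside Cotl1 and Tns1, with nearly the same estimate (1.30, against 1.32 as reported). With the replicate block 1 passed, Cotl1. With the block Fscn1 did not pass in KO pDC minus KO cDC1 (-1.94, adjusted p = 0.0879) and in KO pDC minus KO cDC2 (-2.05, adjusted p = 0.0525), and Cfl1 passed in WT pDC minus WT cDC1 (-1.05, adjusted p = 0.0298). In WT cDC2 minus WT cDC1, where 2 passed, RLE scaling left 1, Coro1a, and the offsets 0. With no filter 1 passed, Fscn1, and neither Coro1a nor Tmsb4x did. Leaving out a library gave 0 to 2. In KO cDC2 minus KO cDC1, limma voom called 1 in place of 0. In KO pDC minus KO cDC1, 4 to 7 of the 7 passed when a library was left out, with 4 without cDC1 KO 1. Over all genes the average gave 36 calls in the fit as reported, 133 with DESeq2, 166 with no filter and 21 with the offsets. Deviations from group means correlated with r of -0.182 to 0.179 over 33 pairs of same-numbered libraries, and -0.274 to 0.274 over 60 other pairs. In groups of 2 the deviations mirror each other, so these values cannot tell whether the numbers pair the samples. RLE scaling moved the median log2 difference over all genes by up to 0.11 and the offsets by up to 0.24. The causes were not tested. With 2 libraries a group, SE leans on the other groups' spread.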

Other observations

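Ifitm2, 1 of the 5 genes most like Cotl1 in pattern, codes for an interferon-induced membrane protein. It averaged 44.8 CPM in cDC1 KO and 11.2 CPM in cDC1 WT, 81 CPM in cDC2 KO and 17.7 CPM in cDC2 WT, and 2.92 CPM in pDC KO and 0.227 CPM in pDC WT. Mcm5, the gene most like Cotl1, averaged 65 CPM in cDC1 KO and 45.7 CPM in cDC1 WT, 49.5 CPM in cDC2 KO and 27 CPM in cDC2 WT, and 5.38 CPM in pDC KO and 3.14 CPM in pDC WT. Apol7c, like Fscn1 in pattern, averaged 76.1 CPM in cDC2 KO and 28.8 CPM in cDC2 WT. These genes were taken for their likeness over the same libraries, so their values are a description.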
